A study of Mus musculus with 9 samples.

Results

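A set of 10 transcription factors of the heart muscle programme was followed across the 9 libraries of this series, namely Gata4, Gata6, Nkx2.5 (Nkx2-5 in mouse nomenclature), Tbx5, Tbx20, Hand2, Mef2a, Mef2c, Mef2d and Srf. They were chosen by name, and all 10 were found in each of the 3 deposited full tables, out of 15779 genes in all. The tables hold RNA levels from pieces of flash-frozen adult C57BL/6J mouse heart, enriched for polyadenylated RNA. Libraries fell into 3 groups of 3. Wild-type mice were given saline. Mice homozygous for a premature stop codon in Mybpc3 (the allele in the genotype name below) were given saline. Mice of the same genotype, written Mybpc3R946X/R946X, were given the treatment labelled high-dose-exABE8e. The labels do not define that name, and the series' own text describes adenine base editors carried by the AAV9 virus and meant for cardiomyocytes, without naming a promoter. The labels give no sex, no age beyond adult and no statement on pooling, so the p-values below measure the spread between these samples, whatever its source. Comparisons are named by these groups: saline mutant against wild type, treated against saline mutant, and treated mutant against wild type. Each group enters 2 of these 3 comparisons, so no comparison is independent of the others.

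These factors act as a small network. GATA4 and GATA6 are zinc-finger proteins, NKX2-5 is a homeodomain protein, TBX5 and TBX20 belong to the T-box family, HAND2 is a basic helix-loop-helix protein, and the MEF2 proteins and SRF share the MADS-box DNA-binding domain. They bind near one another at the enhancers of contractile, ion channel and natriuretic peptide genes, form the heart in the embryo and remain expressed in adult muscle. Much of their regulation in the adult heart is on the protein, through kinases, histone deacetylases and cofactors such as myocardin, and is not visible in RNA levels. Several are also expressed outside cardiomyocytes, for example Mef2c in endothelium and Gata6 and Hand2 in stromal cells. In whole-heart RNA, fewer cells of a type and less RNA per cell cannot be told apart.

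Mybpc3 itself, which encodes a sarcomere protein, served as a check of the labels. It was 1510, 1795 and 2039 in wild-type, 133, 142 and 186 in saline mutant and 1024, 1374 and 1332 in treated libraries. The deposited values per library are whole numbers on a per-million-like scale, with library totals from 999152 to 999382; the unit is not named, so read depth is unknown and levels are compared within a gene and not between genes. Each comparison was fitted with limma on log2(value + 1), genes count as called where the Benjamini-Hochberg adjusted p, taken over all genes tested, is under 0.05, and a difference on this scale slightly understates the change of a low gene. In each group 1 library had transcripts of Xist, the RNA of the inactive X chromosome: wild-type replicate 1, saline mutant replicate 3 and treated replicate 1, the last of which also carried Y-linked transcripts. Fits without the libraries with Xist drop 2 of the 6 in each comparison. All 8 cardiomyocyte markers checked were high in every library, with sums from 49706 to 59952, and none was called in any comparison. Myh6 was the largest part of each sum. In saline mutants against wild type the median of the 8 differences was -0.24, beside 0.07 over all genes. Tnnt2, Tnni3, Mb and Pln were lower in saline mutants without overlap, and Actc1 was higher without overlap. Such separation in either direction was found in 21.6% of all genes. Myh6, Ryr2 and Myl2 overlapped.

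Between saline mutant and wild-type hearts, 2 of the 10 factors were called, and both belong to the T-box family. Tbx20 rose and Tbx5 fell, while Gata4, Gata6, Nkx2.5, Hand2, the 3 Mef2 genes and Srf did not pass the test. The T-box genes Tbx2 (0.18), Tbx3 (-0.22) and Tbx18 (0.18), tested as partners, were not called (limma adjusted p 0.684, 0.6 and 0.701). Over all 13632 genes tested, 7.7% were called, 4.56% higher and 3.14% lower. The 10 differences ran from -0.52 to 0.70 on the log2 scale with a median of 0.07, equal to the median of 0.07 over all genes. After treatment, no factor was called against saline mutants (0 of 10, where 0.0147% of genes were called) or against wild type (0 of 10, where 0.989% were called). At an unadjusted limma p under 0.05 there were 4, 2 and 1 of the 10 in the 3 comparisons, against 19.7%, 8.29% and 12.5% of all genes. Calls over all genes depended on single libraries: with 1 library left out they ranged from 506 to 1029, from 2 to 8 and from 1 to 133.

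**Figure D1:**
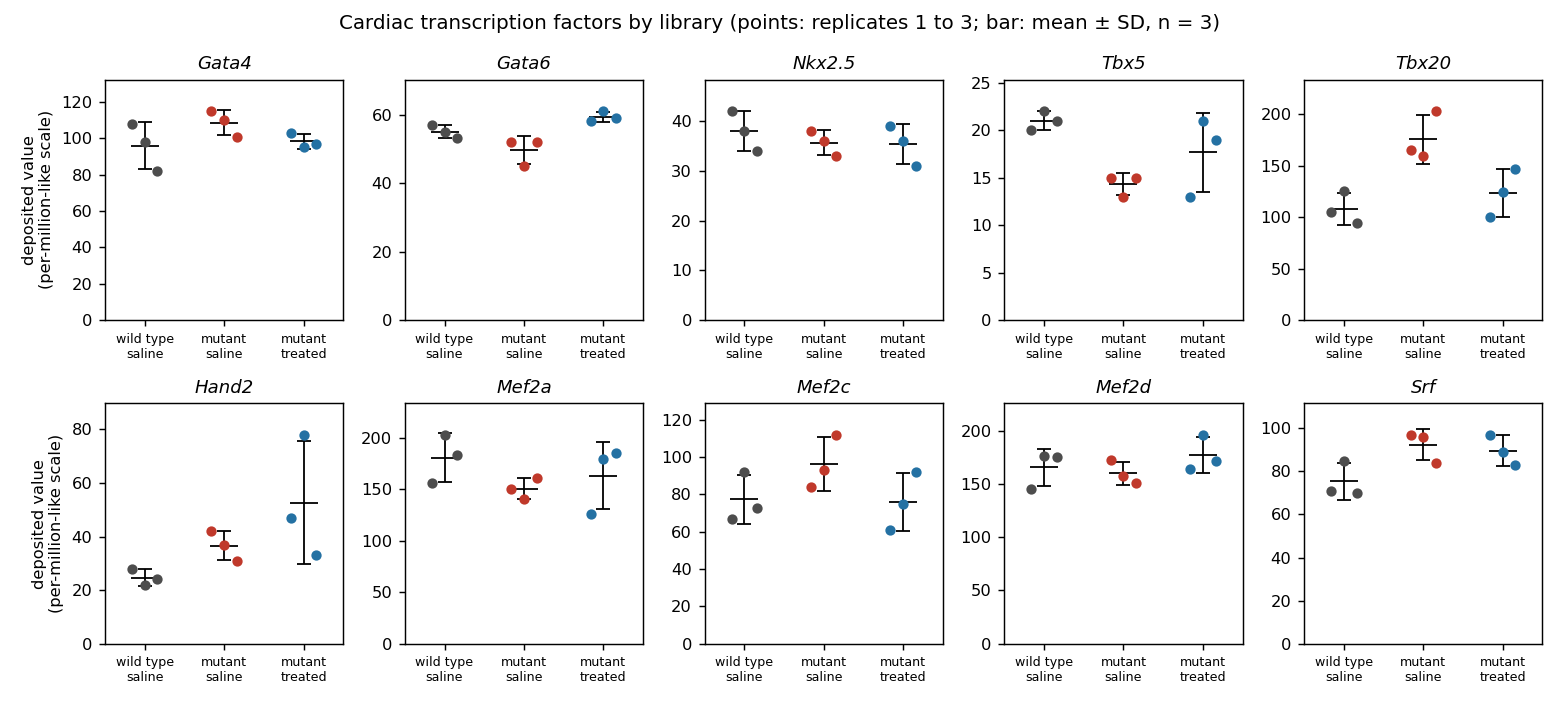
Deposited values (y axis, per-million-like scale, from 0) of the 10 transcription factors in each library, by group (x axis); points are replicates 1 to 3 from left to right and bars give mean ± SD, n = 3. Tbx20 was between 94 and 125 in wild type and between 159 and 203 in saline mutants, Tbx5 between 20 and 22 and between 13 and 15, and Hand2 reached 78 in treated replicate 2.

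The sequence before the transcription start is shown for Tbx20, called between genotypes, for Hand2, the factor that varied most between libraries, and for Srf, whose window holds binding motifs of SRF itself. Each is the 250 bases before the RefSeq start on GRCm38.p6, the assembly that mm10 names, read 5′ to 3′ on the gene's own strand. RefSeq promoter entries matched 7 of the 10 factors; Gata4, Gata6 and Tbx5 had none. The windows are chr9:24774304-24774553 on the minus strand for Tbx20, chr8:57320733-57320982 on the plus strand for Hand2 and chr17:46556163-46556412 on the minus strand for Srf. Capitals mark matches to the GATA motif AGATAA, the NKX motif CAAGTG, the T-box motif AGGTGT, the MEF2 motif CTANNNNTAG and the CArG box bound by SRF, each searched on both strands.
Tbx20: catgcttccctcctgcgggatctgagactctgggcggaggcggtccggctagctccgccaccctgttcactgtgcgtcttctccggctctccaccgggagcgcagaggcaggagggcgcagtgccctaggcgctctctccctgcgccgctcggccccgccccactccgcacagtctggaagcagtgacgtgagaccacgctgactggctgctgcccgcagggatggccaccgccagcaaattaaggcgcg
Hand2: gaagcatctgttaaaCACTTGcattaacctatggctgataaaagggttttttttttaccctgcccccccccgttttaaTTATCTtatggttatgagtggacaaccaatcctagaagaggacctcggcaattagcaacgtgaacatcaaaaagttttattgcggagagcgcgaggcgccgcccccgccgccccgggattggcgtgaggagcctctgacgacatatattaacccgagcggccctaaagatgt
Srf: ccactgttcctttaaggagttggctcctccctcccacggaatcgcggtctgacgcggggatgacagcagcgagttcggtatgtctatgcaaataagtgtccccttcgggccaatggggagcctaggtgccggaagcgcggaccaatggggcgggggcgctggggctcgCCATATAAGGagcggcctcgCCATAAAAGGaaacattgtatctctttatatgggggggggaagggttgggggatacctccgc
The Srf window holds 2 CArG boxes, beginning 82 and 62 bases before the start, and 1.47% of 32851 promoter windows of this length hold at least 1. The Hand2 window holds 1 match to the GATA letters AGATAA, 172 bases before the start, and 1 NKX match at 235, letters held by 9.99% and 11.6% of all windows. The NKX match lies on one of its 2 E-box matches (CANNTG, not capitalised, held by 66.2% of windows). No searched motif was found in the Tbx20 window. T-box and MEF2 letters, held by 11.8% and 3.20% of all windows, were in none of these 3. A match is a run of letters, and these data hold no measurement of binding.

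GATA4 and GATA6 activate contractile and natriuretic peptide genes and are partly interchangeable in the embryonic heart. Gata4 was 108, 98 and 82 in wild-type libraries, 115, 110 and 101 in the saline mutant group and 103, 95 and 97 in the treated group. All 3 groups overlapped, and the differences were 0.18 (95% interval -0.09 to 0.46), -0.14 (-0.37 to 0.09) and 0.04 (-0.24 to 0.32) in the order of comparisons above. Gata6 was 57, 55 and 53 in wild type, 52, 45 and 52 in the saline mutant group and 58, 61 and 59 in the treated group. The 3 groups did not overlap, with saline mutants lowest and treated mutants highest, but the steps were small. Treated mutants exceeded saline mutants by 0.25 (SE 0.108, limma p 0.0442 unadjusted and 0.584 adjusted), and saline mutants lay at 90.3% ± 7.35 of the wild-type mean (SD, n = 3). Non-overlap of this kind was found in 21.6%, 9.82% and 14.6% of all genes in the 3 comparisons. Among the 10 factors it was found in 4, 2 and 2.

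NKX2-5 is a homeodomain factor of the cardiac lineage that works with GATA4 and TBX5 and remains expressed in adult ventricles. Nkx2.5 was 42, 38 and 34 in wild type, 38, 36 and 33 in the saline mutant group and 39, 36 and 31 in the treated group. The groups overlapped in every comparison. The fitted differences were -0.09, -0.02 and -0.10, and the 95% intervals stayed within -0.40 and 0.27. The sign between treated and saline mutants turned under median-of-ratios factors (0.02) and upper-quartile factors (0.005).

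TBX5, mutated in Holt-Oram syndrome of the limbs and heart, activates conduction and calcium-handling genes, and TBX20 both activates and represses heart genes and is needed for adult cardiomyocyte function. On GRCm38 Tbx20 lies on chromosome 9 from 24718138 to 24774303 and Tbx5 on chromosome 5 from 119832668 to 119885219 (GENCODE M21). Tbx20 was 105, 125 and 94 in wild type, 165, 159 and 203 in the saline mutant group and 100, 124 and 147 in the treated group. Every saline mutant library stood above every wild-type and every treated library, and treated libraries overlapped wild type and reached above it. Saline mutants lay at 163% ± 22.1 of the wild-type mean, a rise of 0.70 in log2 units (SE 0.139; adjusted p 0.0178 by limma), and treated mutants at 115% ± 21.8. Treated mutants were below saline mutants by -0.51 (SE 0.16), with a limma p of 0.0115 unadjusted and 0.44 adjusted. Against wild type they differed by 0.19 (95% interval -0.20 to 0.57). The rise in saline mutants was called in 14 of 19 alternative fits. It was not called without wild-type replicate 1 (limma adjusted p 0.0747), wild-type replicate 3 (0.0673) or saline mutant replicate 3 (0.0558), without the libraries with Xist (0.0937) or with no rounding floor on the variance (0.0627), and the lowest value of any alternative was 0.0066. In the authors' deposited table the Tbx20 log2 fold change was 0.63 (unadjusted p 0.00104), and the gene stands on their list of changed genes for that comparison. Adjusted here by Benjamini-Hochberg, the authors' p for Tbx20 was 0.0512, just above the threshold used here.

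Tbx5 was 20, 22 and 21 in wild type, 15, 13 and 15 in the saline mutant group and 13, 21 and 19 in the treated group. Wild-type and saline mutant libraries did not overlap, whereas treated replicate 1 sat at the saline mutant level and treated replicates 2 and 3 near the wild-type one. Saline mutants lay at 68.3% ± 5.5 of the wild-type mean (-0.52, SE 0.123, limma adjusted p 0.0366) and treated mutants at 84.1% ± 19.8. The fall was called in 9 of 19 alternative fits. Leaving out any 1 of the 6 libraries ended the call, with limma adjusted p-values from 0.0565 (without saline mutant replicate 3) to 0.178 (without saline mutant replicate 2). The limma adjusted p was 0.0854, 0.124 and 0.135 when wild-type replicate 1, 2 or 3 was left out, 0.0573 without saline mutant replicate 1 and 0.0922 without the libraries with Xist, and the lowest of any alternative was 0.00788. Values this low carry coarse steps, since they were rounded to whole numbers. In the authors' deposited table the log2 fold change was -0.62 with an unadjusted p of 0.13, and Tbx5 is not on their list.

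Set against each other within a library, the T-box pair gave a ratio of Tbx20 to Tbx5 from 4.48 to 5.68 in wild type (5.14 ± 0.611, n = 3), from 11 to 13.5 in saline mutants (12.3 ± 1.27) and from 5.9 to 7.74 in treated mutants (7.11 ± 1.05). The ratio was chosen after the values were seen and is given as a description. It divides the factor called higher by the one called lower, so its separation of saline mutants from wild type adds nothing to those calls. None of the 3 groups overlapped in it. Treated libraries were closer to wild type than to saline mutants in this ratio. Neither gene alone passed the test between treated and saline mutants (Tbx5: 0.26, 95% interval -0.16 to 0.69). The ratio of Gata4 to Gata6, neither of them called, also set saline mutants (1.94 to 2.44) apart from wild type (1.55 to 1.89) and treated mutants (1.56 to 1.78).

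**Figure D2:**
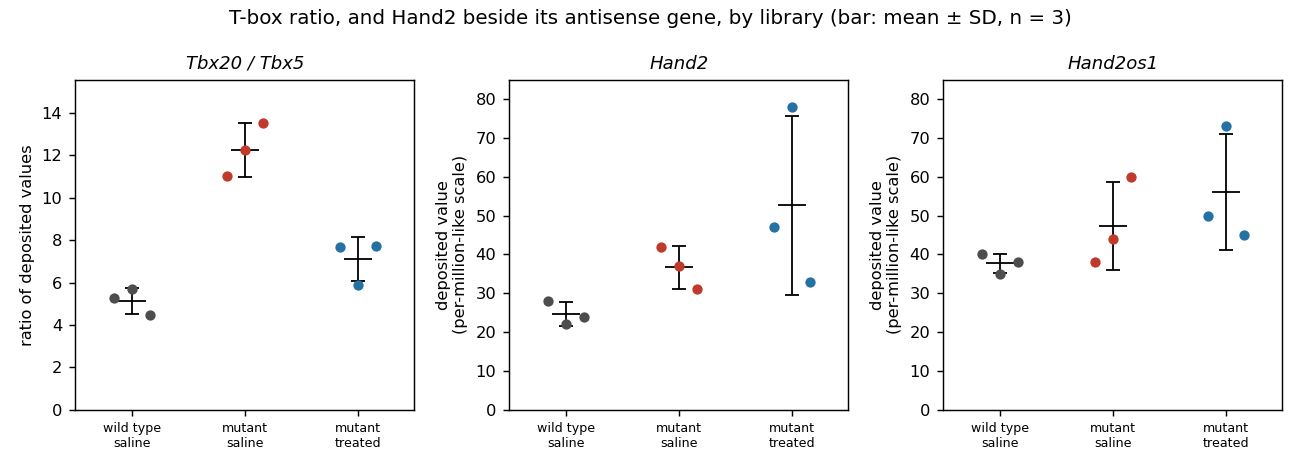
Left, ratio of the deposited values of Tbx20 and Tbx5 in each library; middle and right, deposited values of Hand2 and of Hand2os1, the gene on its opposite strand (y axes from 0; points are replicates 1 to 3, bars mean ± SD, n = 3). The ratio was highest in saline mutants (11 to 13.5), and Hand2 and Hand2os1 were both highest in treated replicate 2 (78 and 73).

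HAND2 shapes the right ventricle and outflow tract in the embryo. Its gene lies on chromosome 8 from 57320983 to 57324633 on GRCm38 (GENCODE M21). Hand2 was 28, 22 and 24 in wild type, 42, 37 and 31 in the saline mutant group and 47, 78 and 33 in the treated group. Both mutant groups stood above wild type without overlap, but they overlapped each other, and treated replicate 2 was far above every other library. Saline mutants lay at 149% ± 22.3 of the wild-type mean (0.55, SE 0.147, limma adjusted p 0.0604) and treated mutants at 214% ± 93.4 (0.98, SE 0.282, limma adjusted p 0.208). Of 19 alternatives, 4 called the difference in saline mutants, among them the fit without saline mutant replicate 3 (limma adjusted p 0.0423) and the fit without the libraries with Xist (0.0315). None called the one in treated mutants, where the difference was 0.66 without treated replicate 2 and 1.27 without treated replicate 3 (limma adjusted p 0.313 and 0.0755). The authors' deposited table lists Hand2 as changed in treated mutants against wild type (log2 fold change 1.07, unadjusted p 0.00448) and not in the other comparisons. The authors' p-values, adjusted here by Benjamini-Hochberg, gave 0.386 for Hand2 in that comparison.

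Exons of Hand2os1, a noncoding gene, share bases with Hand2 on the opposite strand, and whether reads were counted by strand is not given in the sources used here. Hand2os1 was 40, 35 and 38 in wild type, 38, 44 and 60 in the saline mutant group and 50, 73 and 45 in the treated group. Like Hand2 it was highest in treated replicate 2, but its saline mutant values overlapped wild type (0.30, limma adjusted p 0.376). Reads of the 2 genes cannot be told apart without strand. Exons of Lysmd4 overlap those of Mef2a in the same way, and Lysmd4 stayed between 17 and 22 in all 9 libraries. Gata6 and Mef2d also share exon bases with genes on the opposite strand, which were not analysed here.

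MEF2 proteins are the nuclear targets of calcium signals: class II histone deacetylases hold them silent until kinases remove these. Mef2a was 156, 203 and 183 in wild type, 150, 141 and 161 in the saline mutant group and 126, 179 and 185 in the treated group. Mef2c was 67, 92 and 73 in wild type, 84, 93 and 112 in the saline mutant group and 61, 75 and 92 in the treated group. Mef2d was 145, 176 and 175 in wild type, 172, 157 and 151 in the saline mutant group and 164, 196 and 171 in the treated group. For each of these genes the groups overlapped in every comparison. Between saline mutants and wild type, Mef2a differed by -0.25 (95% interval -0.53 to 0.02), Mef2c by 0.32 (-0.03 to 0.66) and Mef2d by -0.04 (-0.30 to 0.21). Their limma adjusted p-values were 0.282, 0.295 and 0.886. Treated against saline mutants gave 0.10, -0.35 and 0.14, of which the Mef2c interval ran from -0.73 to 0.04. The ratio of Mef2c to Mef2a, looked at after the values were seen and given as a description, was 0.427 ± 0.0272 in wild type, 0.638 ± 0.0703 in saline mutants and 0.467 ± 0.0419 in treated mutants. The saline mutants did not overlap the others in it, as in the ratios of Tbx20 to Tbx5 and of Gata4 to Gata6. Neither Mef2a nor Mef2c was called, and how often other pairs of genes separate in this way was not counted.

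SRF binds CArG boxes, the motif in capitals in the Srf window above, and drives actin and immediate-early genes with myocardin-family cofactors. Srf lies on chromosome 17 from 46548329 to 46556175. It was 71, 85 and 70 in wild type, 97, 96 and 84 in the saline mutant group and 97, 89 and 83 in the treated group. Both mutant groups overlapped wild type through wild-type replicate 2. The means lay at 123% ± 9.6 and 119% ± 9.32 of wild type, differences of 0.29 (95% interval 0.03 to 0.56, limma adjusted p 0.201) and 0.25 (-0.02 to 0.52, adjusted p 0.427). Treated and saline mutants differed by -0.04 (-0.30 to 0.21).

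**Figure D3:**
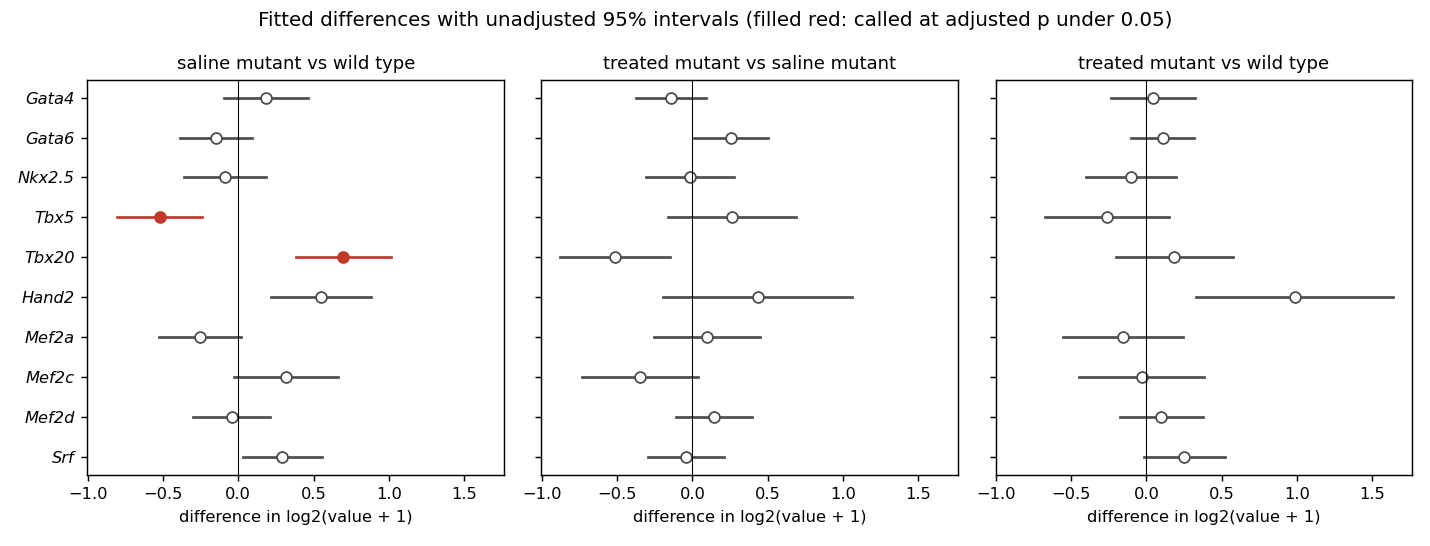
Fitted differences in log2(value + 1) of the 10 factors (x axis) with unadjusted 95% intervals, 1 panel per comparison; filled red points were called. Tbx5 (-0.52) and Tbx20 (0.70) were called between saline mutant and wild type, and no factor was called in the other 2 panels.

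Hand2 and Tbx20, the 2 factors with the widest spread over the 9 libraries, were compared with every gene of mean value at least 30 by the root mean square difference between centred log2 profiles, as a description. Nearest to Tbx20 among 4980 genes were Ecm2 (0.0958), Ptgfrn (0.107) and Thoc2 (0.119). Ecm2 was 42, 50 and 42 in wild type, 65, 60 and 85 in the saline mutant group and 37, 46 and 52 in the treated group. Nearest to Hand2 were Atg13 (0.17), Lnx2 (0.172) and Rusc2 (0.211). All 3 had their highest value in treated replicate 2, at 156, 57 and 122.

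Partners and targets were taken from lists of textbook names. Among 27 other cardiac transcription factors, 22 were in the tables, 21 could be tested, and none was called in any comparison by limma. The shares called over all genes were 7.7%, 0.0147% and 0.989%. At an unadjusted limma p under 0.05 there were 4, 1 and 2 of the 21, beside 19.7%, 8.29% and 12.5% of all genes. Tead1, which binds muscle gene enhancers, differed most in saline mutants among those of mean value at least 10 (0.39, limma adjusted p 0.206), followed by the zinc-finger factor Casz1 (0.28, limma adjusted p 0.307). Between treated and saline mutants these were Tbx3 (0.57) and Hey1 (0.40), with limma adjusted p-values of 0.572 and 0.64. Klf15 (0.50) and Irx3 (-0.43) differed most in treated mutants against wild type, with limma adjusted p-values of 0.448 and 0.176.

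Of 23 cofactors and chromatin regulators tested, 3 were called in saline mutants (2 higher, 1 lower), beside 7.7% of all genes. None was called after treatment in either comparison, beside 0.0147% and 0.989% of all genes. At an unadjusted limma p under 0.05 there were 5 and 3, beside 8.29% and 12.5% of all genes. Fhl2, a LIM-domain protein that restrains SRF activity, fell from 1787, 1728 and 1481 to 873, 743 and 759 (-1.07, SE 0.119, limma adjusted p 0.00116) and was 1452, 1093 and 1204 in treated mutants. The treated libraries lay between the other groups without overlap, with differences of 0.65 from saline mutants and -0.42 from wild type (limma adjusted p 0.203 and 0.256). Lmcd1, a LIM-domain protein that inhibits GATA6, rose from 34 ± 1.73 to 59.3 ± 6.81 (0.78, limma adjusted p 0.00479), and Csrp3, the Z-disc muscle LIM protein, from 1081 ± 132 to 1725 ± 37 (0.68, limma adjusted p 0.00874). Treated mutants differed from saline mutants by -0.51 in Lmcd1 and from wild type by 0.35 in Csrp3 (limma adjusted p 0.399 and 0.322). Csrp3 was not called in saline mutants without saline mutant replicate 2 (limma adjusted p 0.0512) or under median-of-ratios or upper-quartile factors (0.0604 and 0.0549), and the lowest value of any alternative was 0.00436. The list's median was 0.05, beside 0.07 over all genes.

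Targets usually assigned to the GATA, NKX2-5 and T-box factors moved in both directions. Of 21 tested, 7 were called in saline mutants, 3 higher and 4 lower, beside 7.7% of all genes. The list median was -0.17. Myh7, the slow myosin heavy chain, rose by 3.62, Nppb by 3.25 and Nppa, the atrial natriuretic peptide, by 3.95 (limma adjusted p 0.000113, 0.000121 and 0.0011). All 3 are well-known markers of cardiac stress. Gja1, the ventricular gap junction protein, fell by 0.87 (limma adjusted p 0.00903; 0.0504 without wild-type replicate 1 and 0.0773 without the libraries with Xist; lowest 0.00289), and the muscarinic receptor Chrm2 and the potassium channel Kcnh2, named after their values were seen, also fell, by 0.58 and 0.48 (limma adjusted p 0.016 and 0.0369). They were called in 15 and 8 of 19 alternatives. Chrm2 lost its call without wild-type replicate 2 (0.0569) or 3 (0.0756) or saline mutant replicate 2 (0.0745), and Kcnh2 without any 1 of the 6 libraries (0.0567 to 0.152). After treatment none of the 21 was called against saline mutants by limma, beside 0.0147% of all genes, although the differences of the stress markers were large. At an unadjusted limma p under 0.05 there were 6, beside 8.29% of all genes. Myh7 was 1024, 759 and 1364 in the saline mutant group and 223, 307 and 51 in the treated group, a difference of -2.74 (SE 0.574, limma adjusted p 0.214). Nppa was 356, 858 and 1489 against 256, 187 and 155 (-1.97, SE 0.445, limma adjusted p 0.253), and was called only without saline mutant replicate 1 (0.0332, with values up to 0.862 over the alternatives). Nppb, named here after its values were seen, was 344, 477 and 490 against 188, 115 and 78 (-1.85, SE 0.288, limma adjusted p 0.139), and was called in 3 of 19 alternatives, among them the fit without treated replicate 1 (0.0456, in a range from 0.0386 to 0.537). In these 3 genes every treated library lay below every saline mutant library. Of the 21 targets, 9 did not overlap between these groups, 6 higher and 3 lower in treated mutants, beside 9.82% of all genes in either direction. Against wild type Nppa alone of the 21 was called (1.98, limma adjusted p 0.0196), beside 0.989% of all genes, and Nppb differed by 1.40 (limma adjusted p 0.126). The Nppa call was lost without wild-type replicate 1, 2 or 3 (0.0525, 0.0728 and 0.0687) or treated replicate 2 (0.0516), and the lowest value of any alternative was 0.00333.

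Among 13 MEF2 targets, 6 were called in saline mutants, 5 higher and 1 lower, beside 7.7% of all genes. Xirp2, an actin-binding protein of the intercalated disc, rose from 325, 461 and 411 to 2146, 2407 and 2411 (2.55, SE 0.14, limma adjusted p 5.98e-05) and was 1155, 932 and 1442 in treated mutants. Hspb7, a small heat shock protein, rose from 1321 ± 124 to 2647 ± 288 and Des, the intermediate filament desmin, from 1811 ± 116 to 2672 ± 62.1, while Slc2a4, the insulin-regulated glucose transporter, fell by 0.87 (limma adjusted p 0.00205, 0.0138 and 0.00602). Des was not called without wild-type replicate 2 (0.067) or saline mutant replicate 2 (0.0917) or under median-of-ratios or upper-quartile factors (0.138 and 0.114), and the lowest value was 0.00799. Jun, an immediate-early transcription factor, and Xirp1, both named after their values were seen, also rose, by 0.64 and 0.90 (limma adjusted p 0.0321 and 0.0253). They were called in 9 and 13 of 19 alternatives. Both lost their call without wild-type replicate 1 (0.0863 and 0.113), 2 (0.0624 and 0.0583) or 3 (0.119 and 0.0534), Jun without saline mutant replicate 1 (0.057) or 3 (0.0651) and Xirp1 without saline mutant replicate 2 (0.0671). No MEF2 target was called between treated and saline mutants by limma, beside 0.0147% of all genes. At an unadjusted limma p under 0.05 there were 3 of the 13, beside 8.29% of all genes. The largest differences there were those of Nr4a1, an orphan nuclear receptor (1.21, limma adjusted p 0.369), and Xirp2 (SE 0.164, limma adjusted p 0.139; values above). Xirp2 was the 1 MEF2 target called in treated mutants against wild type (1.55, limma adjusted p 0.0258), beside 0.989% of all genes. It was not called there without wild-type replicate 1, 2 or 3 (0.0765, 0.0723 and 0.087), treated replicate 1 (0.0651) or the libraries with Xist (0.114), and the lowest value was 0.00342. Xirp1 differed there by 1.28 (limma adjusted p 0.102; called without treated replicate 3, at 0.0136, the lowest of alternatives up to 0.555). The list's medians were 0.16, 0.03 and 0.56 in the 3 comparisons, beside 0.07, -0.02 and 0.01 over all genes.

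Of 19 SRF targets tested, 4 were called in saline mutants, 3 higher and 1 lower, beside 7.7% of all genes. Between treated and saline mutants 1 was called, beside 0.0147% of all genes. Between treated mutants and wild type none was called, beside 0.989% of all genes. There 8 had an unadjusted limma p under 0.05, beside 12.5% of all genes. The list's median in saline mutants was 0.16. Skeletal alpha-actin, Acta1, rose from 266, 437 and 597 to 4810, 4989 and 4824 (3.56, limma adjusted p 0.000178) and was 971, 1087 and 841 in treated mutants, lower than in saline mutants by -2.34 (SE 0.127, limma adjusted p 0.000254). Acta2, the smooth muscle actin, fell from 257, 328 and 189 to 118, 118 and 117 (-1.09, limma adjusted p 0.00721) and was 186, 170 and 161 with treatment, 0.54 above saline mutants (limma adjusted p 0.172). The fall of Acta2 was not called without the libraries with Xist (limma adjusted p 0.0661, lowest of any alternative 0.00129). The matricellular gene Ccn1 rose by 0.83 and Zyx, a focal adhesion protein, by 0.61 (limma adjusted p 0.0136 and 0.0321). Neither was called without wild-type replicate 1 (0.0663 and 0.113) or saline mutant replicate 2 (0.0735 and 0.126), nor was Zyx without wild-type replicate 3 (0.122) or saline mutant replicate 3 (0.103). Against wild type, treated mutants differed by 1.30 in Ccn1 and 1.22 in Acta1 (limma adjusted p 0.145 and 0.112), and Ccn1 was called there without treated replicate 3 (0.0088, the lowest of alternatives up to 0.664). In saline mutants the adjusted p of Ccn1 ranged from 0.00309 to 0.136 and Zyx from 0.0112 to 0.169 over the alternatives. The 2 alpha-actins on this list, Acta1 and Acta2, went in opposite directions in saline mutants. Cardiac alpha-actin, Actc1, was read among the cardiomyocyte markers and not on this list. It was 10692, 10722 and 9667 in wild type and 13680, 12664 and 12481 in saline mutants, and was not called.

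**Figure D4:**
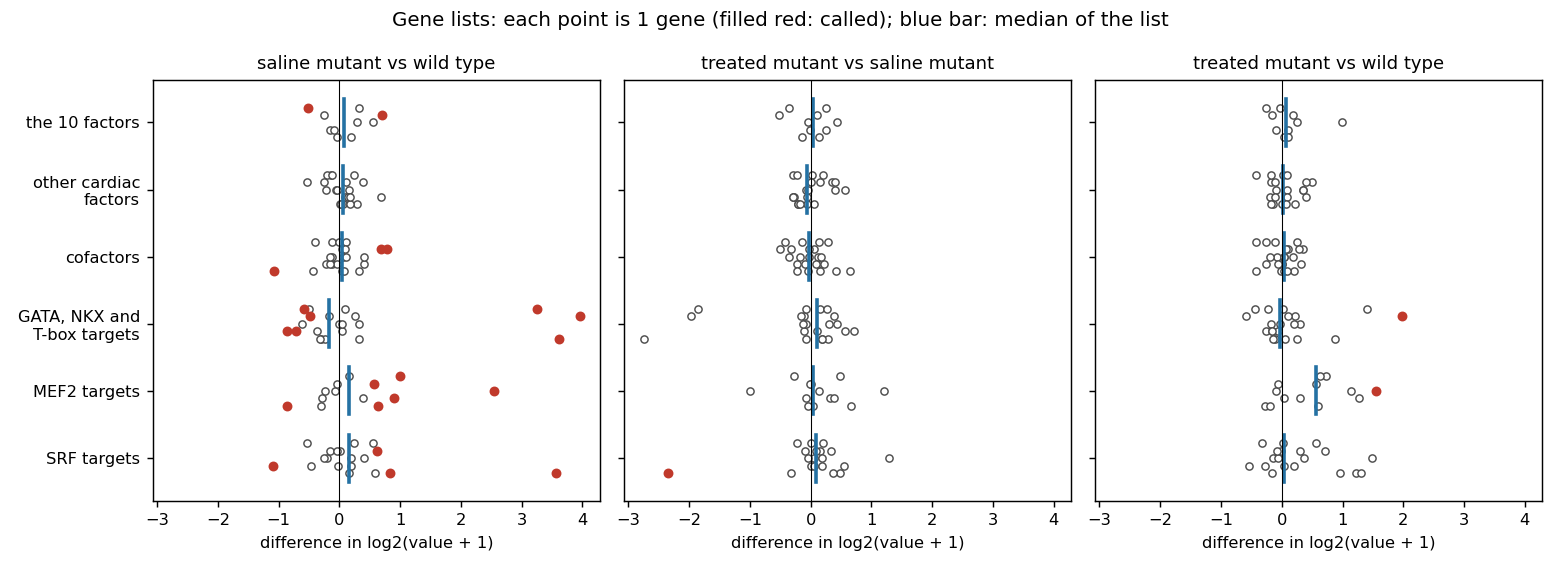
Fitted differences in log2(value + 1) (x axis) of each tested gene in the 10 factors and the 5 lists of partners and targets, 1 panel per comparison; filled red points were called and blue bars mark the median of a list. The 10 factors lay between -0.52 and 0.70 in saline mutants, while called targets reached 3.95, and the other cardiac factors had no called gene.

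Markers of other cell types were read beside these results. In saline mutants the summed fibroblast markers (6 of 6 measured) were 1628 to 2477, above 1101 to 1516 in wild type and 1247 to 1544 in treated mutants, and 1 of the 6, Col1a1, was called higher. The 6 did not move alike. Pdgfra, Dcn and Col1a1 were higher in saline mutants than in wild type without overlap, a separation found in either direction in 21.6% of all genes. Lum and Tcf21 overlapped. Dpt ran lower with overlap, at 191, 180 and 142 in wild type and 119, 153 and 182 in saline mutants. The 6 macrophage markers summed to 173 to 323, against 151 to 202 and 149 to 210, and the 6 endothelial markers to 940 to 1038, against 965 to 1344 and 947 to 1125, with none called in either list. Their part in the Tbx20, Tbx5 and Hand2 differences was not tested. Each epicardial marker was under 10 in every library, and none was called. Of the atrial list only Myl4 was analysed here, at 1 in each wild-type library, at 3, 3 and 5 in saline mutants, where it was called higher, and at 2, 2 and 3 in treated mutants. Red cell markers summed lower in saline mutants (69 to 85, against 104 to 313), with 2 of 5 called. The 4 pericyte and 4 smooth muscle markers overlapped between all groups, with none called. Schwann cell, skeletal muscle and adipocyte markers that could be measured were at 7 or less in every library.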

How the data were processed

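Polyadenylated RNA of adult mouse heart was sequenced as 9 libraries in 3 groups of 3. The submitters' processing notes name HISAT2, HTSeq, DESeq2 and the build mm10, without versions or roles. The authors deposited whole-number values per library that sum to nearly 1 constant, treated here as a score since no header names the unit, and values that stand in more than 1 table were identical. The authors' mean signal, log2 fold change and p-value columns carry DESeq2's column names; their column named as adjusted equals the unadjusted normal p-value, tested on the files.

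Pairs of groups were fitted by limma (version 3.58.1, R version 4.3.3) after log2(value + 1). A gene entered where its 6 values averaged 1 or more. Residual variance was floored at the rounding variance (1/12), and the prior degrees of freedom came from genes with a mean of at least 30. The step was tested on simulated data. The members, lists, variance step and tests were chosen with earlier results of these data known. Named were Mybpc3, the 10 factors, up to 4 called genes a list with the smallest adjusted p, the 2 largest differences where fewer than 2 were called (mean value of at least 10), and the 3 nearest profiles. Gene positions come from GENCODE M21 (GRCm38), promoters from RefSeq GRCm38.p6. The alternatives were 19 other fits a comparison, 1 of them added after the data were seen. A called target and a marker list are not reported here.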

Additional observations from a re-analysis of the deposited data

How the results depend on the processing

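The cause of these changes was not tested. The number of the 10 factors called in saline mutants against wild type was 1 in place of 2 with no rounding floor on the variance, with all 9 libraries in 1 fit, with the replicate block, without the libraries with Xist and under a covariate for Y-linked level, and 0 to 1 with 1 library left out; it was 3 with the filter at a mean of 10 and with the prior from all genes, where Hand2 was called too, and without the libraries with Xist the 1 called factor was Hand2 (limma adjusted p 0.0315), with Tbx5 and Tbx20 both lost (0.0922 and 0.0937); after treatment it was 0 in every fit of both comparisons. Counts over all genes in saline mutants against wild type, 1050 in the fit reported, were 556 without the libraries with Xist and 506 to 1029 with 1 library left out, and other scalings changed the share called higher from 59.2% to 53.4% (median of ratios) or 47.7% (upper quartile). Between treated and saline mutants 2 genes became 6 with the filter at a mean of 10, 10 with either scaling (8 higher, 2 lower), 32 with no rounding floor, 14 with the prior from all genes, 13 with all libraries in 1 fit, 30 with the replicate block and 4 with the rounding floor taken at the gene mean, the setting added after the data were seen (2 to 8 with 1 library left out). For treated mutants against wild type 134 became 86 with no filter, 77 with no rounding floor, 243 with the prior from all genes, 236 with all libraries in 1 fit, 35 with the replicate block, 9 without the libraries with Xist and 29 with the Y-linked covariate (1 to 133 with 1 library left out); its share called higher was 87.3%, 79.1% and 72.1% under the 3 scalings.

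GATA, NKX2-5 and T-box targets called between treated and saline mutants were 1 in place of 0 with the prior from all genes or the replicate block (0 to 1 with 1 library left out); against wild type they were 0 in place of 1 with no rounding floor and 2 with all libraries in 1 fit or the block (0 to 2), and in saline mutants 4 to 7 with 1 library left out. MEF2 targets between treated and saline mutants were 1 with the block; against wild type they were 0 with no floor, 4 with the prior from all genes, 2 with all libraries in 1 fit, 0 with the block and 0 without the libraries with Xist (0 to 2), and in saline mutants 3 to 5 with 1 library left out. SRF targets in saline mutants were 2 with no floor and 1 without the libraries with Xist (2 to 4), and treated against wild type 1 with the prior from all genes or all libraries in 1 fit (0 to 1). Cofactors in saline mutants were 2 to 3 with 1 library left out.

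Signs of the factors turned only for small differences. In saline mutants Nkx2.5 was 0.040 without the libraries with Xist, and Mef2d ranged from -0.13 to 0.0042 with 1 library left out (turned without wild-type replicates 2 and 3). Between treated and saline mutants Nkx2.5 was 0.023 under median-of-ratios and 0.0047 under upper-quartile factors, and with 1 library left out Nkx2.5 ranged from -0.0894 to 0.0716 (saline mutant replicate 1, treated replicate 3), Mef2a from -0.0024 to 0.27 and Srf from -0.11 to 0.012 (both treated replicate 3). For treated mutants against wild type Gata4 was -0.038 under upper-quartile factors and ranged from -0.065 to 0.13 (wild-type replicate 3), Mef2a from -0.26 to 0.019 (treated replicate 1) and Mef2c from -0.18 to 0.11 (wild-type replicate 2, treated replicate 1), and Mef2c was 0.019 without the libraries with Xist. Of 570 alternative values for the factors, 536 kept direction and side of the threshold, 15 lost the call, 4 gained it and 15 turned sign.

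Replicate numbers are shared by the groups, but no label says that they pair animals. Deviations of libraries with the same number correlated from -0.42 to -0.03 between saline mutants and wild type, from -0.08 to 0.21 between treated and saline mutants and from -2.3e-05 to 0.60 between treated mutants and wild type, so the block is given as a setting only. With it 819 genes passed between saline mutants and wild type, and not every library correlated best with its own number. Under the block the limma adjusted p of Tbx5 was 0.123 and that of Des 0.0722.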
